A study of Mus musculus with 14 samples.

Results

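The transcripts described here are those that the annotation assigns to the class nonsense_mediated_decay and that reached a mean of at least 0.5 TPM over all 14 libraries. TPM is a length-corrected share of all transcripts in a library. Of 137767 transcripts in the table, 6816 carried this class, 6038 of them were above 0 in at least 1 library, and 1228 met the minimum. They belong to 1020 genes, of which 158 had 2 or more such transcripts. In all, 26374 transcripts of any class met the same minimum, among them 17398 protein_coding, 3833 retained_intron and 2259 processed_transcript models. Transcripts are named by gene and number as in the annotation, so Eny2-206 is 1 transcript model of Eny2. Members were selected on their mean TPM over all libraries, so that mean is a description and no result.

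RNA came from purified hepatocytes of C57BL/6 mice, in polyA-selected libraries, from a study of the loss of Srsf1, an SR protein that binds exons and guides splice site choice. In the hepatocyte knockout (HKO), mice of genotype srsf1f/f;albcre+/- were compared with albcre+/- mice that carried the albumin-Cre transgene, at postnatal day 10 (P10) and at 1 month, with 2 libraries per group. In the acute knockout (acHKO), srsf1f/f mice were injected at 8 weeks with aav-tbg-icre and compared with srsf1f/f mice given aav-tbg-gfp, with 3 libraries per group at 10 weeks. The floxed allele was thus in the HKO animals but not named for their controls, it was in both acute groups, and the Cre was in both HKO-model groups but only in acHKO of the acute pair. Cre is driven by the albumin or TBG promoter and acts in hepatocytes, so other cells of a preparation keep Srsf1. Whether replicates come from different animals is not stated, so p-values measure only the spread between these libraries, which may be technical.

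Nonsense-mediated decay degrades messenger RNAs in which translation ends too early. In mammals the usual mark is an exon junction complex left on the RNA downstream of the stop codon, which recruits UPF and SMG proteins. Such transcripts arise when an exon with a stop is included, when a skipped exon shifts the reading frame, or when an intron in the 3′ untranslated region is spliced. Many genes of splicing factors use such "poison" exons or skipped exons to limit their own expression. The measured level of a decay transcript therefore reflects both how often the splice is made and how fast the product is degraded, and these cannot be told apart here. The class is a call of the annotation, and decay itself was not measured.

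The sequences below show how the early stop arises in the members that the results turn on. Each is the coding-strand sequence from the start of the exon that holds the stop to the stop codon, which is in capitals, read from GENCODE M21 transcripts on GRCm38. In the first set the exon is outside the exons of the most abundant protein_coding transcript of the gene, so the exon itself brings the stop. The positions are chr15:44430691-44430778 (+) for Eny2-206, chr4:126173282-126173329 (-) for Thrap3-213, chr7:28817335-28817393 (+) for Hnrnpl-213, chr2:156178881-156178952 (-) for Rbm39-218 and chr7:24886107-24886153 (+) for Rps19-205.
Eny2-206: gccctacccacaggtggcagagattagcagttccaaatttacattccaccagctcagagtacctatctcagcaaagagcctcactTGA
Thrap3-213: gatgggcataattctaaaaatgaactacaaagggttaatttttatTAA
Hnrnpl-213: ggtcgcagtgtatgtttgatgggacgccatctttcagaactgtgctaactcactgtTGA
Rbm39-218: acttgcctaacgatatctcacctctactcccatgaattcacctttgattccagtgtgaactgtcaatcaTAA
Rps19-205: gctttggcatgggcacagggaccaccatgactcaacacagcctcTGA

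In the second set a reference exon is skipped upstream, and the stop lies in the shifted frame of an ordinary coding exon. Gpbp1-204 skips 224 bases and stops at chr13:111448983-111448999 (-), Gls2-208 skips 130 bases and stops at chr10:128201206-128201282 (+), and Ctsh-202 skips 106 bases and stops at chr9:90062717-90062725 (+). Tlk2-207 skips 44 bases with its stop in chr11:105221186-105221301 (+), Eif5-207 skips 82 bases with its stop in chr12:111540461-111540488 (+), and Ptbp1-201 lacks 2 exons of 112 bases in all, with its stop in chr10:79862449-79862475 (+). None of these lengths is a multiple of the codon length.
Gpbp1-204: ccatctttaaatccTGA
Gls2-208: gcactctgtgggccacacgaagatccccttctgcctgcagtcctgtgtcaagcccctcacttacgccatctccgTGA
Ctsh-202: tggcatTGA
Tlk2-207: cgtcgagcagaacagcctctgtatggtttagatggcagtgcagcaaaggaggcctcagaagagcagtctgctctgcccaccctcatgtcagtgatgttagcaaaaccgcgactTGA
Eif5-207: catgtcaatccaaagaagcaaacaaTAG
Ptbp1-201: gcgtctacggtgatgtgcagcgggTGA

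In the third set the stop is that of a protein_coding transcript, and it is the splicing downstream of it that sets the class. The positions are chr15:103243959-103244014 (+) for Hnrnpa1-203, chr17:10214169-10214194 (-) for Qk-202, chr10:88475405-88475536 (-) for Chpt1-207 and chr11:116852028-116852086 (-) for Srsf2-204.
Hnrnpa1-203: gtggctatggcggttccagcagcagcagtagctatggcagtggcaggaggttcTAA
Qk-202: gtatggctttcccaacgaaaggcTAA
Chpt1-207: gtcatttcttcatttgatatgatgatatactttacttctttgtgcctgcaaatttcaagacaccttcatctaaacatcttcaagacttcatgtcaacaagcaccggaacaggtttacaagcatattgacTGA
Srsf2-204: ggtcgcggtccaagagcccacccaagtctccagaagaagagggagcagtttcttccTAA

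Of the 1228 members, 1218 matched the annotation by identifier and version, and all 1218 had at least 1 exon junction after the stop. The stop lay a median of 359.5 bases before the last junction (range 29 to 7549), and 8 members had 50 bases or fewer. Of 992 compared protein_coding transcripts, 3 had a stop more than 50 bases before their last junction. The place of the stop before the junctions is part of how the annotation sets these classes, so this contrast is no result. The median member had 7 exons and 3 junctions after the stop. TGA was the stop codon of 650, TAA of 314 and TAG of 254. Members lay on 20 chromosomes, and 845 shared a start codon with a protein_coding transcript of their gene.

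The stop fell in an exon of the compared protein_coding transcript in 498 members, and in 321 of these a reference exon was skipped upstream. It fell in an exon outside the reference exons in 291, in an exon with other ends in 288, and in an exon spanning a reference intron in 26. In 97 members the stop was shared with a protein_coding transcript, and 18 had no such transcript to compare. GGAGA, a motif of the kind known for SRSF1 binding, was searched on the transcript strand in the first 60 bases of the exons, overlapping matches included. It was in 24 of 244 distinct stop exons outside the reference (9.84%) and in 1210 of 9395 internal exons of the compared transcripts (12.9%). GAAGAA was in 18 of the 244 (7.38%) and 719 of the 9395 (7.65%). A match is a description of the letters and no binding site.

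Most members were scarce. Member means ran from 0.501 to 704 TPM with a median of 1.27, 489 were under 1 TPM, 79 were at 10 or more and 7 at 100 or more. The members just inside the minimum were Lamc1-205 (0.501), Tmem41a-202 (0.502) and Tcf12-211 (0.503), and those just outside were Piga-205 (0.499), Kif5a-203 (0.498) and Srrm2-204 (0.498). A group mean of 0.5 TPM or more was reached by 670 members in every group and by 6 in 1 group only. The median member made up 11.4% of its gene's TPM. In 87 members the share was at least 50%, and in 304 it was under 5%. TPM keep no depth, so the counting error behind a low value is unknown.

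The libraries also differed in their cell and RNA makeup, in part along the groups. Transcripts of the mitochondrial genome took 26.0% to 33.9% of TPM in 6 of the 8 P10 and 1 month libraries, with 50.6% and 35.8% in the 1 month HKO libraries, and 11.8% to 16.1% in GFP against 33.5% to 42.9% in acHKO. The second HKO library at P10 held Xist at 74.7 TPM and summed Y-linked genes at 0.144 TPM, while the other 13 libraries held Y-linked genes at 24.9 to 68.0 TPM. It also held summed erythroid markers of 2169 TPM, against 168 to 354 in the other P10 libraries. Summed Kupffer cell and macrophage markers were 198 to 290 TPM at P10, 6.88 to 65.5 at 1 month, highest in the first HKO library, and 2.24 to 21.2 in the acute libraries. Every hepatocyte marker listed was above 0 in every library. Marker sums of several cell types moved with the knockout. Hepatocyte markers summed to 127481 and 132603 TPM in P10 controls and 81882 and 96118 in HKO, and cholangiocyte markers to 2.26 and 2.34 against 5.47 and 5.52. At 1 month macrophage markers were 6.88 and 7.65 TPM in controls and 65.5 and 24.8 in HKO, and stellate cell markers 4.82 and 4.64 against 25.8 and 9.45. In the acute pair erythroid markers were 29.9 to 46.7 TPM in GFP and 7.88 to 12.2 in acHKO. Neutrophil markers were 0.0489 to 0.212 against 0.305 to 1.01, and T, B and NK cell markers 0.0168 to 0.0867 against 0.193 to 0.474. The other sums overlapped, as for macrophages (2.24 to 5.77 against 3.74 to 21.2) and hepatocytes (43392 to 56266 against 33908 to 51028). The part of these differences in the results was not tested. Srsf1 itself was 43.6 and 46.4 TPM in P10 controls against 30.0 and 23.4 in HKO, 23.2 and 20.0 against 7.74 and 9.17 at 1 month, and 16.5, 29.7 and 32.3 in GFP against 3.69, 5.34 and 4.16 in acHKO. In such bulk samples, fewer cells of a type and less RNA per cell cannot be told apart.

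Summed over all members, 6955 and 7009 TPM were found in P10 controls and 7880 and 8176 in P10 HKO. At 1 month the sums were 6212 and 6504 in controls and 4409 and 6029 in HKO. They were 4736, 5121 and 5944 in GFP and 3909, 4288 and 4332 in acHKO. The knockout libraries were thus all above the controls at P10 and all below them in the other comparisons. Rescaling the libraries to a common median ratio turned the difference in group means from 1046 to -205 TPM at P10 and from -1091 to 276 TPM in the acute comparison.

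Pooled over their own genes, the members took a larger part in 2 of the 3 comparisons, but at P10 the median member share went the other way. They held 7.50% and 7.54% of the summed TPM of their genes in P10 controls and 8.52% and 8.84% in HKO. At 1 month they held 12.2% and 11.1% in controls and 10.4% and 10.8% in HKO. In the acute pair they held 10.4%, 9.89% and 10.1% in GFP and 11%, 10.9% and 11.6% in acHKO. These sums are weighted to the most abundant member, Lars2-209, and without it the shares were 8.69%, 8.92% and 8.62% in GFP and 9.14%, 9.52% and 9.53% in acHKO, 10.4% and 9.89% in 1 month controls and 9.28% and 9.85% in HKO. The median member share was 9.98%, 10.1% and 9.46% in GFP and 10.5%, 10.8% and 10.8% in acHKO. At P10 it was 11.77% and 11.85% in controls and lower, at 11.53% and 11.33%, in HKO. At 1 month it was 11.55% and 11.24% in controls and 11.70% and 11.38% in HKO. On this measure the GFP libraries were the lowest of the 14.

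**Figure D1:**
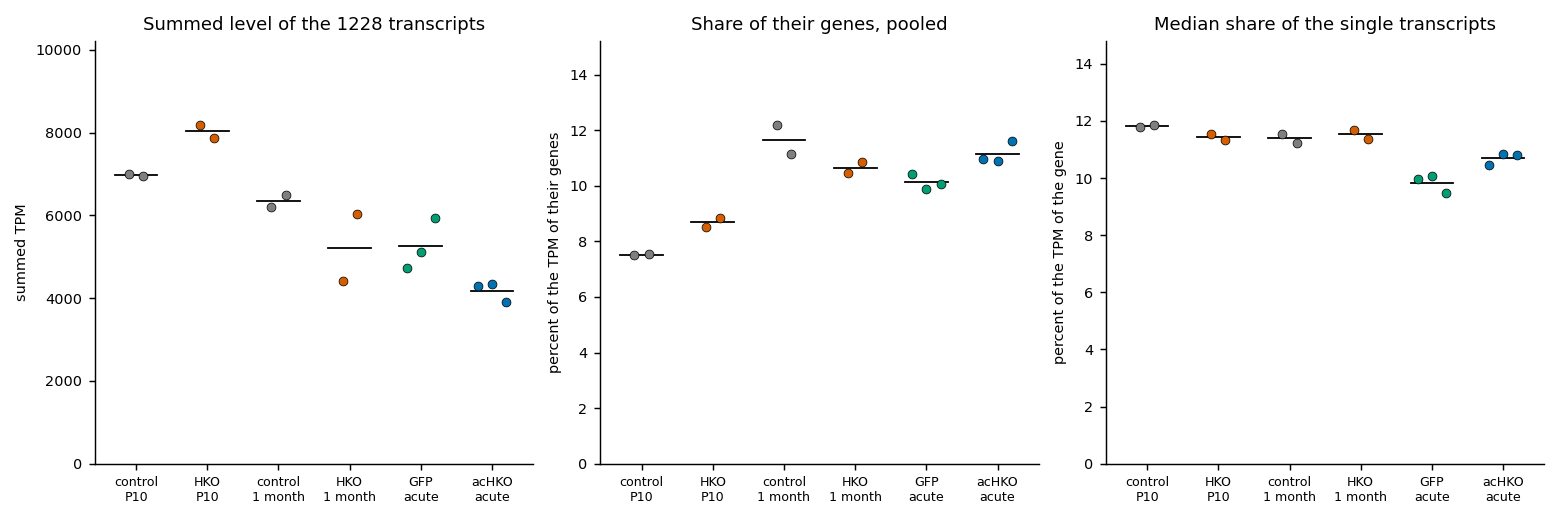
The 3 panels show, for each of the 14 libraries, the summed TPM of the 1228 members, the percentage of their genes' TPM that they make up, and the median member share in percent; points are libraries, coloured by group, and lines are group means. Median shares of the 3 GFP libraries (9.46% to 10.1%) lie below those of all other libraries.

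The most abundant members belong to genes of secretion, translation and metabolism. Lars2-209 (chr9:123366954-123462666, mean 704 TPM), from the gene of the mitochondrial leucyl-tRNA synthetase, made up 80.2% to 99.3% of Lars2 in the 14 libraries and was called in none of the 3 comparisons. Its log2(TPM + 0.5) had a Pearson r of 0.84 with that of Mir6236 over the 14 libraries, a description of libraries that also share their makeup, and whether its reads come from Lars2 messenger RNA was not tested. Serpinc1-204 (490 TPM; antithrombin) rose as a part of its gene in acHKO, from 29.3%, 29.4% and 28.0% in GFP to 39.1%, 40.2% and 40.1%. Serpinf1-208 (124 TPM; the secreted protease inhibitor family member PEDF) rose from 31.2%, 30.7% and 29.7% to 42.0%, 42.5% and 41.9%. The groups did not overlap for either. Cyb5a-201 (322 TPM; cytochrome b5) fell from 38.6%, 38.1% and 36.7% to 31.7%, 30.0% and 30.4%.

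Ppia-201 (115 TPM; the prolyl isomerase cyclophilin A) rose from 14.5%, 9.50% and 3.59% of its gene to 22.9%, 26.5% and 25.3%, with a wide spread among the GFP libraries. The differences of the within-gene log2 ratio, described next, were 0.70 ± 0.13 (SE; limma, Benjamini-Hochberg adjusted p = 0.0058) for Serpinc1-204, 0.73 ± 0.12 (adjusted p = 0.00412) for Serpinf1-208, -0.45 ± 0.13 (adjusted p = 0.0291) for Cyb5a-201 and 1.90 ± 0.48 (adjusted p = 0.0182) for Ppia-201. The ribosomal member Rpsa-206 (128 TPM) and the cytochrome P450 member Cyp3a25-203 (96.3 TPM) were not called in usage in any comparison. In level, Rpsa-206 fell by 0.96 ± 0.15 (adjusted p = 0.00489) on the log2 scale in acHKO.

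Each transcript was tested in 2 ways with limma. The level test used log2(TPM + 0.5), which understates the change of scarce transcripts. The usage test used log2 of the transcript's TPM plus 0.5 over the TPM of the rest of its gene plus 0.5, for the 1208 members whose gene had other transcripts at 0.5 TPM or more. The fixed 0.5 has a known fault: for a transcript near or below 0.5 TPM the ratio rises when the rest of the gene falls and falls when it rises. A second version, chosen after seeing the data, therefore divided 1 TPM between the transcript and the rest by their mean share, and it is given beside the first as the split pseudocount. Kallisto assigns reads that fit several transcripts by a model, so the levels of transcripts of 1 gene depend on each other.

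After acute deletion of Srsf1 in adult hepatocytes, members of this class both rose and fell as a part of their gene, and rises were the more frequent with the ratio as first defined. Of 1208, 349 rose and 166 fell in usage at an adjusted p under 0.05, 515 in all (42.6%), against 40.4% of all 21409 transcripts tested. Over all transcripts 22.6% rose and 17.8% fell, and over the members 28.9% rose and 13.7% fell. With the split pseudocount 277 members rose and 179 fell (background 18.1% and 17.3%, 35.4% in all), and 415 calls were shared in direction. The median ratio difference was 0.16 over the members and 0.06 over all transcripts, or 0.07 and 0.00 with the split pseudocount. The excess of rises was smaller among members with a GFP mean of at least 0.5 TPM, a restriction chosen after seeing the data. Of these 975 members 234 rose and 156 fell (24% and 16%), against 19.3% and 20.9% of all transcripts with such a GFP mean. With the split pseudocount 180 of the 975 rose and 173 fell, against 15.4% and 20.6% of those transcripts. With limma diffSplice 208 of all 1208 members rose and 143 fell. Of the 349 rises, 16 were in members that reached the minimum only through the acHKO libraries. Of the 166 falls, 7 were in members that reached it only through the GFP libraries. For these the minimum itself favoured a higher level in that group.

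Other annotation classes moved too. Of 3810 retained_intron transcripts 1468 rose and 226 fell in usage, and of 2175 processed_transcript models 661 rose and 260 fell. Of 13879 protein_coding transcripts 2287 rose and 3103 fell. With the split pseudocount the counts were 1130 and 243, 512 and 282, and 1902 and 2939. The members' split between higher and lower calls lay between those of the retained_intron and the protein_coding transcripts in either version. Shares of a gene sum to the whole, so these classes are not independent of each other.

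**Figure D2:**
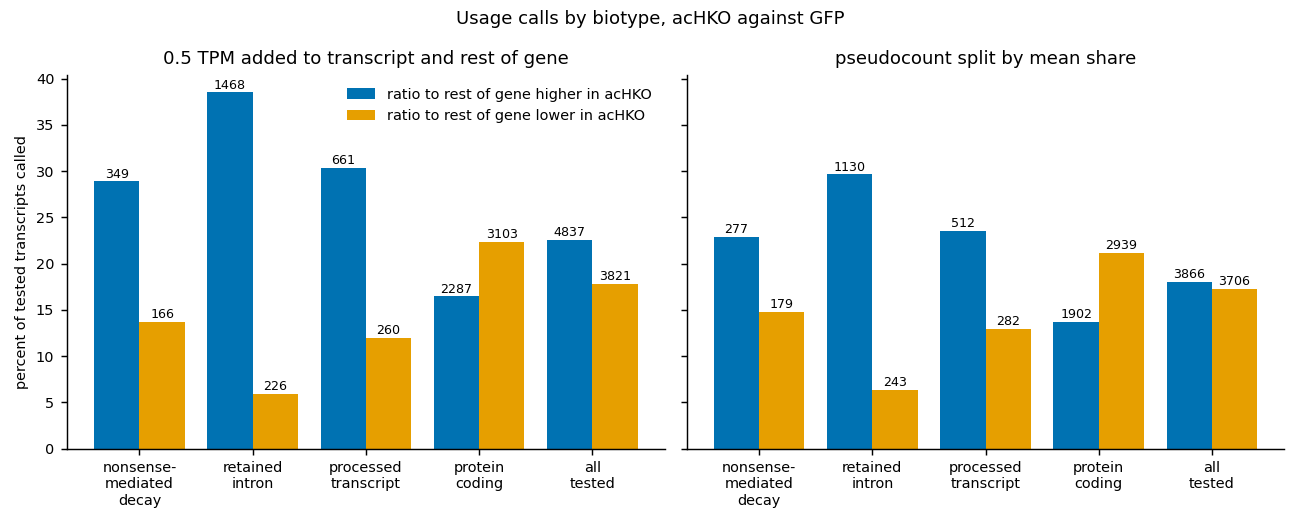
Bars give the percentage of the transcripts of each annotation class called higher or lower in usage in acHKO against GFP; the 2 panels use 0.5 TPM added to both sides of the ratio and the split pseudocount. Nonsense_mediated_decay transcripts (349 higher and 166 lower of 1208 in the first panel) lie between retained_intron and protein_coding transcripts.

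The shares themselves did not overlap between GFP and acHKO in 374 members that were higher and 286 that were lower, 31.0% and 23.7%, against 25.9% and 25.7% of all transcripts tested. Among members called in usage, 316 were higher and 158 lower with no overlap (backgrounds 19.9% and 16.9%). In 7 called members the mean share moved against the ratio. A difference of at least 10 percentage points was reached by 112 called members that rose and 68 that fell (backgrounds 9.08% and 10.4%). Of the 349 that rose in usage, 101 also rose in level, 12 fell in level and 236 were not called in level. These are 28.9%, 3.44% and 67.6%, near the 28.5%, 5.27% and 66.2% of all transcripts that rose in usage. Of the 166 that fell, 119 also fell in level (71.7%, against 66.7% of all transcripts that fell).

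Higher calls outnumbered lower calls for each kind of early stop, as they did over all transcripts tested (22.6% higher and 17.8% lower). Usage rose in 148 and fell in 58 of 498 members with the stop in a reference exon, and rose in 81 and fell in 50 of 289 with the stop in an exon outside the reference. It rose in 83 and fell in 39 of 285 with other exon ends, and rose in 28 and fell in 18 of 97 that shared the stop of a protein_coding transcript. All 7 called members among the 26 whose stop exon spans a reference intron rose. With the split pseudocount the higher and lower calls were closer in most kinds: 121 and 62, 64 and 53, 60 and 45, 22 and 17, and 8 and 0. Over all transcripts 18.1% rose and 17.3% fell in that version. The median ratio differences were 0.16, 0.14, 0.17, 0.16 and 0.35 in this order, and 0.10, 0.00, 0.05, 0.06 and 0.19 with the split pseudocount. These differences between kinds of stop were not tested.

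**Figure D3:**
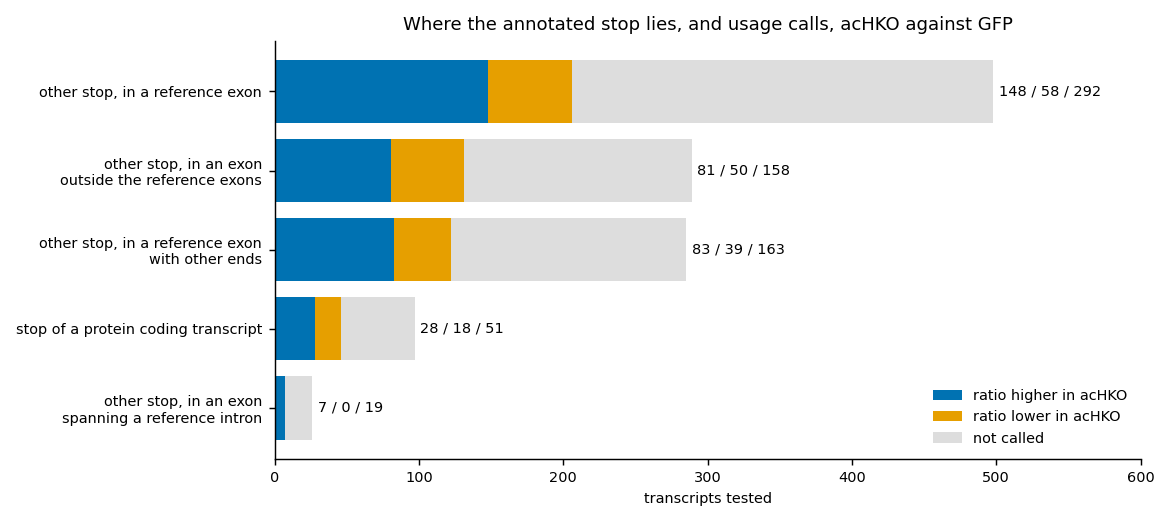
Stacked bars give, for each kind of early stop, how many members were called higher, called lower or not called in usage in acHKO against GFP. Higher calls outnumber lower calls in each kind, from 148 against 58 for stops in a reference exon to 7 against 0 for exons spanning an intron. Of all transcripts tested, 22.6% were called higher and 17.8% lower.

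In level, 432 members were called in the acute comparison, 123 higher and 309 lower (33.6% of all 26374 transcripts were called, 8.19% higher and 25.4% lower). Of the 123, 14 reached the minimum only through the acHKO libraries, and of the 309, 21 only through the GFP libraries. The median log2 difference was -0.19 over the members and -0.26 over all transcripts. The direction depended on the scale of the libraries. After median-ratio rescaling 250 rose and 210 fell, without mitochondrial transcripts 195 rose and 129 fell, and after quantile normalization 230 rose and 250 fell. Over all transcripts 9325, 5911 and 9753 were called in this order, both directions together.

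Among calls without overlap of the groups, the 6 largest rises in share after acute deletion, genes with only a predicted name aside, were those of Gpbp1-204, Ctsh-202, Tlk2-207, Bmp1-205, Rps6kc1-206 and Puf60-204. Eny2-206, which rose by fewer points, is given with them since it was also called at P10. From the gene of a small subunit shared by the SAGA and TREX-2 complexes of transcription and mRNA export, it was 0.775%, 0.600% and 0.950% of Eny2 in GFP and 11.5%, 10.5% and 16.4% in acHKO. Gpbp1-204, from the gene of vasculin, a GC-rich promoter binding protein, was 7.83%, 8.62% and 4.10% in GFP and 46.9%, 49.6% and 43.7% in acHKO. Neither pair of groups overlapped. The ratio rose by 3.41 ± 0.22 for Eny2-206 (adjusted p = 0.000177) and by 3.00 ± 0.23 for Gpbp1-204 (adjusted p = 0.000313). In level Eny2-206 was 0.415, 0.388 and 0.729 TPM in GFP and 2.56, 2.83 and 3.38 TPM in acHKO. Eny2-205, a member of the same gene with a higher mean over all libraries (7.70 against 1.47 TPM), was among the 6 largest falls in level in acHKO.

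Ctsh-202, from the gene of the lysosomal protease cathepsin H, was the most abundant of the 6 members with the largest rises. It stood at 9.29%, 9.74% and 6.61% of Ctsh in GFP and 40.1%, 37.1% and 41.1% in acHKO. Its level was 8.19, 9.70 and 7.38 TPM in GFP and 28.6, 27.9 and 29.5 TPM in acHKO, again with no overlap. Its ratio rose by 2.75 ± 0.19 (adjusted p = 0.000235). The libraries of the HKO model, controls included, held this transcript at 20.6% to 31.7%, above GFP and below acHKO.

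Tlk2-207, from the gene of a Tousled-like kinase of chromatin assembly, was 6.33%, 3.68% and 4.30% in GFP and 50.7%, 47.0% and 27.9% in acHKO. Bmp1-205, from the gene of the procollagen C-proteinase, was 11.3%, 13.1% and 9.77% in GFP and 50.4%, 41.3% and 45.5% in acHKO. All acHKO libraries were above all GFP libraries for both, with ratio differences of 2.70 ± 0.30 and 2.46 ± 0.19. Rps6kc1-206 was listed at 0 in 2 GFP libraries and was 15.1% in the other, against 60.7%, 49.8% and 52.4% in acHKO, at no more than 1.62 TPM in any of them. It reached the minimum only through the acHKO libraries, with a mean of 0.488 TPM over the others. Puf60-204, from the gene of a poly-U binding splicing factor, was 39.9%, 50.1% and 48.8% in acHKO. In GFP it was 20.5% in the first library and at most 0.426% in the others, so 1 GFP library stood far from the other two. Its ratio rose by 3.84 ± 0.86 (adjusted p = 0.0114).

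Among calls without overlap of the groups, the largest falls in share included a lipid synthesis enzyme and an RNA-binding protein. Chpt1-207, from the gene of choline phosphotransferase, which makes phosphatidylcholine, was 50.8%, 48.1% and 43.3% in GFP and 3.35%, 5.53% and 3.51% in acHKO. Its level was 36.6, 35.3 and 39.4 TPM in GFP and 1.45, 2.89 and 1.57 TPM in acHKO. Every acHKO library was far below every GFP library, and the ratio fell by 4.09 ± 0.20 (adjusted p = 0.000109). At 1 month it was 40.7% and 48.0% in controls and 17.3% and 22.9% in HKO, without overlap and with a ratio difference of -1.62 ± 0.27 that missed the threshold (adjusted p = 0.0816).

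Hnrnpu-206, of the gene of the nuclear scaffold protein hnRNP U, fell from 55.5%, 52.9% and 52.4% to 28.4%, 21.5% and 23.3%. Dtnb-204 (beta-dystrobrevin) fell from 63.9%, 54.4% and 59.6% to 32.0%, 28.1% and 27.8%. Tyw5-201, of a tRNA-modifying hydroxylase, fell from 66.9%, 54.1% and 66.0% to 34.7%, 32.6% and 34.0%. None of the 3 overlapped between groups. Pdilt-202 fell from between 36.7% and 40.4% in GFP to between 7.99% and 17.3% in acHKO, in a gene of the protein disulfide isomerase family. Naa60-201, of a Golgi N-terminal acetyltransferase, was 59.5%, 54.1% and 37.8% in GFP and 23.9%, 27.6% and 1.83% in acHKO. Its call was lost with the split pseudocount (adjusted p = 0.0661), while Naa60-202 of the same gene rose from at most 0.0698% to 9.80%, 20.8% and 35.6%. Naa60-202 reached the minimum only through the acHKO libraries, with a mean of 0.0198 TPM over the others, so it had to be higher there. Pdilt-202 reached it only through the GFP libraries, with a mean of 0.410 TPM over the others.

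**Figure D4:**
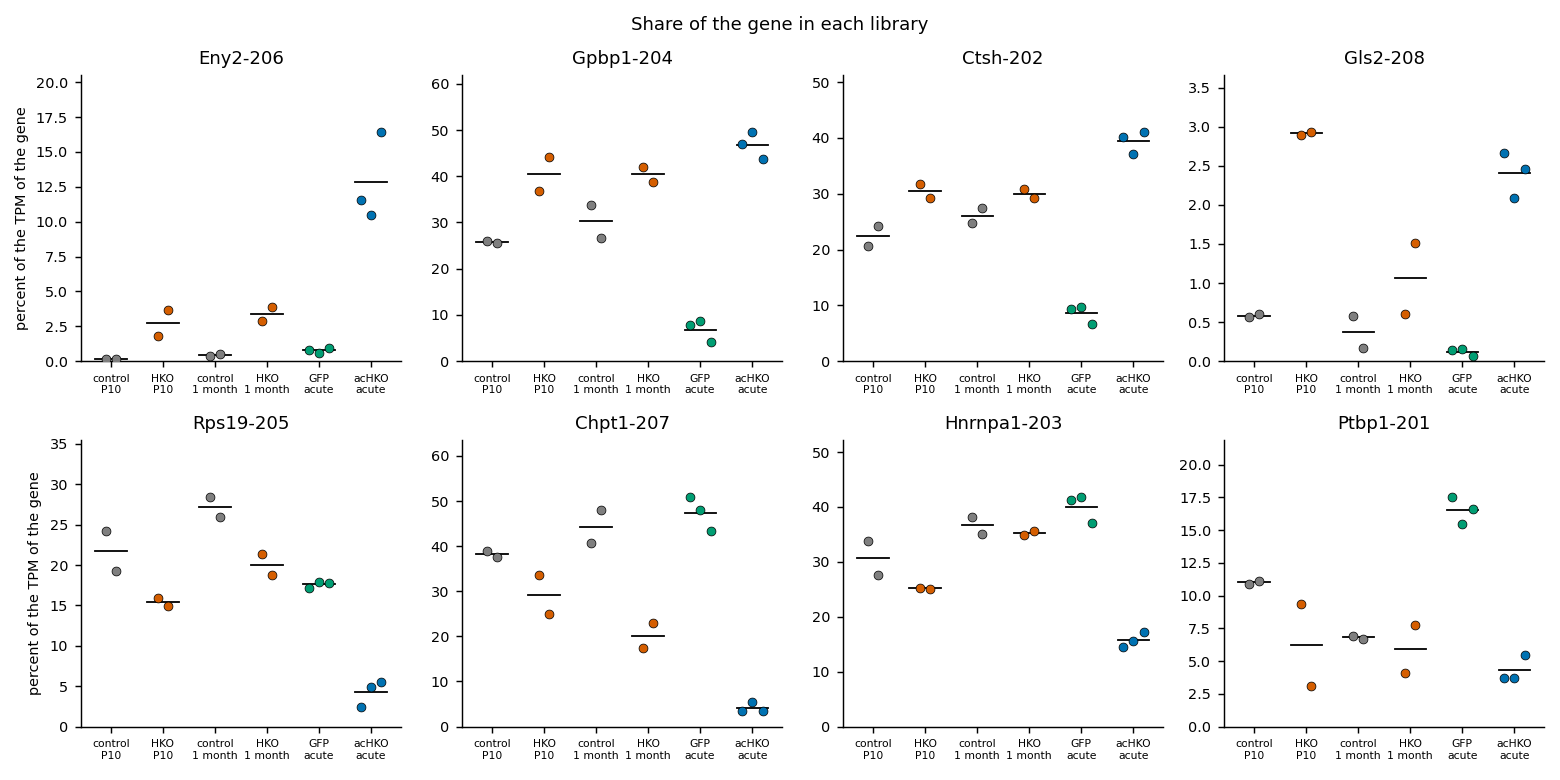
Points give the percentage of the gene's TPM that 8 members made up in each of the 14 libraries, by group, and lines are group means. Gpbp1-204 lies between 43.7% and 49.6% in acHKO against 4.10% to 8.62% in GFP, and Chpt1-207 between 3.35% and 5.53% against 43.3% to 50.8%.

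In level, Parp16-204, of an endoplasmic reticulum ADP-ribosyltransferase, rose from 1.07, 1.10 and 0.388 TPM in GFP to 19.9, 15.2 and 6.02 TPM. Its log2 level difference was 3.29 ± 0.45 (adjusted p = 0.00315), while its usage rose by 0.77 ± 0.25 (adjusted p = 0.0423), so that most of the difference was shared with the rest of the gene. Gls2-208, of the liver glutaminase gene, rose from 0.154, 0.179 and 0.108 TPM to 2.36, 2.12 and 2.07 TPM. Sirt3-206, of the mitochondrial deacetylase gene, rose from 0.498, 1.13 and 1.64 TPM to 3.57, 4.99 and 5.72 TPM. All acHKO libraries were above all GFP libraries in these 3 members, which was a condition for naming them here.

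Abcd3-205, of a peroxisomal fatty acid transporter gene, fell in level from 17.2, 13 and 16.8 TPM to 0.782, 0.212 and 0.211 TPM. Mia2-215, of a gene for cargo export from the endoplasmic reticulum, fell from 13.1, 15.5 and 20.8 TPM to 1.26 TPM in 1 acHKO library and a listed 0 in the others. Clu-205 (clusterin) fell from 28.4, 23.7 and 51.5 TPM to 5.32, 3.80 and 2.24 TPM. The groups did not overlap in any of these, which was again a condition for naming them. Between the 1 month HKO libraries, Mia2-215 varied from a listed 0 to 15.0 TPM and Abcd3-205 from 0.168 to 3.95 TPM. C9-203, of a terminal complement component, fell in level by 2.77 ± 0.34 (adjusted p = 0.00242) with no usage call (-0.19 ± 0.28, adjusted p = 0.621), though with the split pseudocount its usage was called (adjusted p = 0.0195).

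Members of splicing regulator genes moved in both directions. Of 20 members in SR proteins and their relatives, 5 rose and 4 fell in usage in the acute comparison, in either version. This stands beside 28.9% and 13.7% of all members and 22.6% and 17.8% of all transcripts. Srsf2-204, of an SR protein known to splice the end of its own message, was 2.29%, 1.64% and 2.17% in GFP and 10.2%, 9.0% and 7.35% in acHKO. Thrap3-213, of an SR-related factor, was 10.4%, 9.99% and 9.96% in GFP and 16.2%, 23.2% and 17.2% in acHKO. In each the groups stood apart, and the ratios rose by 1.90 ± 0.19 (adjusted p = 0.000671) and 0.91 ± 0.18 (adjusted p = 0.00745). The 4 that fell were Srrm2-203, Srsf11-206, Bclaf1-207 and Bclaf1-204, by 1.17 ± 0.15, 1.12 ± 0.28, 0.73 ± 0.19 and 1.58 ± 0.30. The call of Bclaf1-204 was lost with the split pseudocount (adjusted p = 0.0554), and Srsf11-206 reached the minimum only through the GFP libraries.

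Of 8 members in genes of SR protein kinases, 2 rose and 2 fell, beside 22.6% and 17.8% of all transcripts. Clk1-210 was 4.42%, 4.41% and 6.54% in GFP and 9.63%, 12.8% and 11.4% in acHKO. Clk4-212, of a close relative of Clk1, went the other way, from 11.3%, 12.9% and 13.5% to 7.88%, 6.15% and 5.36%. Clk1 and Clk4 phosphorylate SR proteins, and the members of the 2 genes differed in direction with no overlap of groups in either. Prpf4b-208 fell from 34.6%, 32.3% and 33.5% to 18.4%, 17.0% and 17.2%, and Prpf4b-202 of the same gene rose by 0.57 ± 0.18 (adjusted p = 0.0387), a call lost with the split pseudocount (adjusted p = 0.0554).

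Of 30 members in the hnRNP and PTB list, which repress or bind introns and 3′ ends, 7 rose and 9 fell, beside 22.6% and 17.8% of all transcripts. With the split pseudocount 4 rose and 10 fell, beside 18.1% and 17.3%. Hnrnpa1-203 was 41.2%, 41.8% and 37.1% in GFP and 14.5%, 15.6% and 17.2% in acHKO, at 7.20 to 13.4 TPM in GFP and 5.16 to 6.20 TPM in acHKO. Ptbp1-201, the skipped form by which PTB is known to limit itself, was 17.5%, 15.5% and 16.6% in GFP and 3.75%, 3.74% and 5.44% in acHKO. Qk-202, of the gene of the RNA-binding protein quaking, was 46.4%, 41.2% and 43.1% in GFP and 21.9%, 18.8% and 22.4% in acHKO. All 3 were lower in every acHKO library, with ratio differences of -1.76 ± 0.15, -1.41 ± 0.15 and -1.26 ± 0.15 (adjusted p = 0.000394, 0.000722 and 0.0011).

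Those that rose were Hnrnpa2b1-209, from between 1.33% and 1.74% in GFP to between 3.31% and 4.95% in acHKO, Matr3-211, from between 2.65% and 3.08% in GFP to between 5.61% and 7.11% in acHKO, and Hnrnpl-213, from between 8.06% and 13% in GFP to between 15.7% and 16.5% in acHKO. Tardbp-201, of the gene of TDP-43, which represses its own message, rose from between 1.82% and 2.61% in GFP to between 3.63% and 5.19% in acHKO. The remaining 3, Tardbp-226, Hnrnpu-208 and Hnrnpu-209, lost their calls with the split pseudocount (adjusted p = 0.128, 0.0803 and 0.637). Hnrnpu-208 has the same stop exon as Hnrnpu-206, at chr1:178325281-178325313 (-), and only the fall of Hnrnpu-206 held in both versions of the ratio. Rbm39-218 and Rbm39-225 share a stop exon and moved in opposite directions: Rbm39-218 rose from between 1.99% and 3.00% in GFP to between 5.41% and 5.58% in acHKO, while Rbm39-225 fell from between 6.65% and 7.27% in GFP to between 3.76% and 4.41% in acHKO.

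Of 30 members in spliceosome and RNA-binding motif genes, 11 rose and 3 fell (10 and 3 with the split pseudocount), with a median ratio difference of 0.24. The shares of all transcripts were 22.6% and 17.8% (18.1% and 17.3%). Besides Rbm39-218, Lsm14a-206, of an mRNA decapping body protein, rose from 4.37%, 2.06% and 2.04% to 12.7%, 8.23% and 13.7%. The 3 that fell were Prpf4b-208, Rbm39-225 and Rbm25-208. Rbm25-208 went from 6.18%, 7.47% and 4.36% to 1.03%, 1.40% and 0.442%. No member belonged to the decay factor genes themselves.

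Of 14 members in translation factor genes, 8 rose and 1 fell (6 and 1 with the split pseudocount), with a median of 0.65, or 0.39 with the split pseudocount. The shares of all transcripts were 22.6% and 17.8% (18.1% and 17.3%). Eif5-207, of the factor that triggers GTP hydrolysis at the start codon, was 0.207%, 0% and 0.119% in GFP and 1.20%, 1.18% and 3.73% in acHKO. The groups were apart, at levels of at most 1.13 TPM in the acute libraries. Eif5-205 and Eef1b2-201 also rose, by 1.50 ± 0.27 and 1.03 ± 0.21. Eef1b2-208 rose by 0.74 ± 0.16 with the fixed pseudocount, while its level was 0.139 to 0.300 TPM in GFP and 0 to 0.109 TPM in acHKO, and with the split pseudocount the difference was -1.49 (adjusted p = 0.366). The 1 that fell was Eif4a2-204, of an RNA helicase of initiation, by 0.62 ± 0.18.

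Of 17 members in cytosolic ribosomal protein genes, 5 rose and 2 fell with the fixed pseudocount, and 2 and 3 with the split one. The shares of all transcripts were 22.6% and 17.8%, and 18.1% and 17.3%. Rps19-205 was 17.2%, 17.9% and 17.8% of Rps19 in GFP and 2.42%, 4.86% and 5.49% in acHKO, and 14.9 to 19.5 TPM against 2.04 to 3.87 TPM. Its ratio fell by 2.17 ± 0.28 (adjusted p = 0.00144), with no overlap in share or level. Rpl22l1-204, of a paralog that replaces Rpl22 in some ribosomes, rose from 3.91%, 2.57% and 6.93% to 16.4%, 14.2% and 19.9%. Rpl10a-203 fell by 0.61 ± 0.19. Ribosomal protein genes have many near-identical pseudogenes, so their transcript levels depend on how kallisto shared such reads.

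Of 14 members in genes of the respiratory chain, 5 rose and 2 fell (5 and 3), beside 22.6% and 17.8% of all transcripts. Ndufa10-207, of a complex I subunit, was 1.91%, 3.52% and 0.586% in GFP and 15.4%, 26.7% and 21.4% in acHKO. Ndufb8-205, of another subunit, was 0.638%, 1.24% and 0.873% in GFP and 5.37%, 3.67% and 4.33% in acHKO. Both groups of libraries were fully apart, with ratio differences of 3.33 ± 0.43 and 1.88 ± 0.20. In Ndufs4 the members exchanged places: Ndufs4-204 rose from 25.0%, 24.5% and 26.7% to 37.2%, 38.4% and 32.6%, and Ndufs4-202 fell from 28.5%, 28.5% and 24.2% to 17.7%, 19.8% and 20.4%. Across the members, 52 genes had 2 or more called in usage, and in 25 of them the called members moved in both directions, in 21 all rose and in 6 all fell.

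Members in genes of hepatocyte metabolism and secretion are given beside the shares of all transcripts, of which 22.6% rose and 17.8% fell. Of 13 members in plasma protein genes 7 rose and 1 fell (6 and 2), with a median of 0.70 in either version. Serpinc1-207, a skipped form of the antithrombin gene, was 0.277%, 0.332% and 0.264% in GFP and 1.36%, 1.08% and 0.974% in acHKO. Cp-212 (ceruloplasmin) and Kng2-205 (kininogen) rose by 1.74 ± 0.32 and 1.50 ± 0.28, and Ahsg-204 (fetuin A) fell by 0.92 ± 0.22. C2cd2l-208, also among the 7, is in the list by its symbol and is no plasma protein gene. In their genes the shares of Cp-212, Kng2-205 and Ahsg-204 were small, at most 4.38% for Kng2-205 in any acute library.

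Of 28 members in genes of drug and steroid metabolism, 11 rose and 4 fell (9 and 5). Cyp2r1-206, of the vitamin D 25-hydroxylase gene, was 3.65%, 4.75% and 3.18% in GFP and 26.7%, 25.9% and 22.6% in acHKO. Akr1c13-202 fell from 20.4%, 21.3% and 20.3% to 7.95%, 10.3% and 8.66%, and the groups were apart in both. Cyp2d9-208, Cyp2d9-204 and Cyp2c70-204 also fell, by 1.66 ± 0.27, 1.13 ± 0.21 and 0.73 ± 0.17. Of 6 members in amino acid and urea cycle genes 3 rose and none fell in either version. Gls2-208 was 0.143%, 0.153% and 0.0611% in GFP and 2.67%, 2.09% and 2.46% in acHKO, a ratio difference of 2.60 ± 0.24 (adjusted p = 0.000546).

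Of 15 members in cell cycle and p53 genes, 5 rose and 1 fell (4 and 1), beside 22.6% and 17.8% of all transcripts. Ccnl2-202, of a cyclin that works in splicing, was 4.50%, 8.69% and 5.42% in GFP and 15.5%, 24.8% and 32.3% in acHKO. Cdk18-203 rose from between 4.18% and 7.22% in GFP to between 14.8% and 16.2% in acHKO. Neither overlapped between groups. Cdkal1-206 and Cdk2ap2-205, which also rose, are in the list by their symbols, and Cdkal1 is known as a tRNA-modifying enzyme. The 1 that fell was Cdk9-203, of a kinase of transcription elongation, which went from 10.1%, 9.58% and 11% to 7.45%, 6.01% and 7.23%.

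At P10 few members passed the test. Of 1228, 18 rose and 5 fell in level, 23 in all (1.87%), against 3.67% of all 26374 transcripts (3.07% higher and 0.595% lower), with medians of 0.18 over the members and 0.21 over all transcripts. The split depended on scale: 14 rose and 17 fell after median-ratio rescaling, 16 and 22 after quantile normalization, and 48 and 7 without mitochondrial transcripts. Over all transcripts 1389, 1643 and 1971 were called in this order, both directions together. In usage, 5 of 1208 were called, 2 higher and 3 lower (background 0.322%, with 0.192% higher and 0.131% lower). With the split pseudocount 3 rose and 1 fell (0.224%), and 2 calls were shared. 

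The 2 calls at P10 that held in both versions were Eny2-206 and Serpinc1-207. Eny2-206 was 0.170% and 0.195% of Eny2 in controls and 1.82% and 3.65% in HKO, at 0.187 and 0.211 TPM against 2.07 and 3.88 TPM. Serpinc1-207 was 0.0521% and 0.0493% of Serpinc1 in controls and 0.196% and 0.307% in HKO, at 1.05 and 0.938 TPM against 4.15 and 5.60 TPM. Both were higher in both HKO libraries, with ratio differences of 2.29 ± 0.30 (adjusted p = 0.0359) and 1.83 ± 0.26 (adjusted p = 0.0459). The other 3, Cyp2a5-203, Gpt2-202 and Treh-203, were at most 0.0973, 1.15 and 0.158 TPM at P10, and their calls were lost with the split pseudocount (adjusted p = 0.989, 0.824 and 0.211). Leaving out 1 library at a time left 0 to 3 usage calls.

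In level at P10, 3 of the 18 members that rose reached the minimum only through the HKO libraries, so they had to be higher there. Mmp12-204, of the macrophage elastase gene, is 1 of them, with a mean of 0.23 TPM over the other 12 libraries. It was 0.0749 and 0.0283 TPM in controls and 11.7 and 4.01 TPM in HKO. Its log2 difference was 3.75 ± 0.47 (adjusted p = 0.00656). Summed macrophage markers were 198 and 210 TPM in control and 204 and 290 TPM in HKO libraries, and their part in this result was not tested. Myl6-214 (a myosin light chain) and Ifrd1-209 also rose, by 1.77 ± 0.25 and 1.65 ± 0.30. Paox-203 (polyamine oxidase) fell from 2.67 and 2.05 TPM to 0.728 and 0.390 TPM, and Josd2-213 (a deubiquitinase) from 4.85 and 4.69 TPM to 1.82 and 0.903 TPM. N4bp2l1-202 fell by 1.30 ± 0.24 and Sult2a8-204, of a bile acid sulfotransferase, by 1.44 ± 0.28. HKO and control libraries did not overlap in these, which was a condition for naming them. In place of 23 level calls, 1 was made without the second HKO library, 2 and 1 without the first and second control, and 17 without the first HKO library.

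At 1 month 5 members rose and 6 fell in level, 11 in all (0.896%), against 2.51% of all transcripts (1.66% higher and 0.849% lower), with medians of -0.04 and -0.01. After median-ratio rescaling 21 rose and 21 fell, after quantile normalization 14 and 21, and without mitochondrial transcripts 41 and 6. Over all 26374 transcripts 1591, 1314 and 1791 were called in this order, both directions together. In usage 2 of 1208 rose and none fell (background 0.229%, with 0.149% higher and 0.0794% lower), and neither call held with the split pseudocount, where no member was called (145 at an unadjusted p under 0.05; background 0.121%). Mrpl3-206, of a mitochondrial ribosomal protein gene, was 1.11% and 3.06% in controls and 14.4% and 15.9% in HKO. Its ratio rose by 1.70 ± 0.21 (adjusted p = 0.0355, and 0.0553 with the split pseudocount). In the acute libraries it was 16.1% to 27.3% in GFP and 17.7% to 20.1% in acHKO, with no call.

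Ces3b-203, of a liver carboxylesterase gene, was 0.286% and 0.511% in 1 month controls and 4.20% and 2.28% in HKO, and its call was lost with the split pseudocount (adjusted p = 0.389). In level at 1 month, Knstrn-205 and Cenpa-202, of genes of the kinetochore and the centromeric histone, rose. Knstrn-205 was 0 and 0.112 TPM in controls and 2.22 and 1.76 TPM in HKO, and Cenpa-202 was 0.515 and 0.734 against 3.02 and 3.40 TPM. Chka-213, of choline kinase, rose from 4.37 and 3.19 TPM to 15.7 and 17.1 TPM. In these 3 the groups were apart, a condition for naming them, while the shares of Knstrn-205, Chka-213 and Cenpa-202 in their genes were not called. Fam214a-203 and Tedc2-202 fell from 8.23 and 8.74 to 1.98 and 3.10 TPM and from 2.65 and 1.96 to 0.443 and 0.463 TPM. Pxmp2-204, Sult5a1-202 and Nrbp2-203 fell by 2.37 ± 0.43, 1.71 ± 0.30 and 1.49 ± 0.29.

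Members called in the acute comparison mostly had the same sign in the HKO model, as did other transcripts. Of the 349 that rose, 244 had the same sign at P10 (69.9%, against 69.4% of all transcripts that rose) and 248 at 1 month (71.1% against 67.8%). Of the 166 that fell, 140 had it at P10 (84.3% against 78.0%) and 114 at 1 month (68.7% against 66.9%). Same direction in all 3 comparisons, with an unadjusted p under 0.05 at P10 and 1 month, was found for 16 that rose (4.58% against 5.0%) and 14 that fell (8.43% against 5.08%). The share that rose is near the background. With the split pseudocount 21 rose (7.58% against 6.16%) and 12 fell (6.7% against 4.94%), so the falls were nearer to the background in that version.

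Under both versions of the ratio 16 higher and 10 lower members met this description, which was set after their values were seen. The count over all transcripts was not taken for both versions together. The higher ones were Eny2-206, Gpbp1-204, Gls2-208, Serpinc1-207, Cyp2r1-206, Eif5-207, Ndufb8-205, Lsm14a-206, Zdhhc3-207, Dcun1d1-210, Swi5-203, Pcmtd1-205, Gtf2a2-201, Naa60-205, Sema4g-202 and a transcript of the predicted gene Gm20498. Cyp2r1-206 was 7.98% and 6.27% in P10 controls and 26.0% and 29.1% in HKO, and 3.48% and 6.85% in 1 month controls and 13.8% and 13% in HKO. Gpbp1-204 was 26.0% and 25.5% against 36.7% and 44.3% at P10, and 33.9% and 26.7% against 42.1% and 38.7% at 1 month. Dcun1d1-210, of a neddylation factor gene, was 1.67% and 2.85% against 6.53% and 9.0% at P10 and 3.20% and 2.24% against 4.80% and 7.27% at 1 month. In each of these 3 the knockout libraries were above the controls at both ages, which the choice by sign and unadjusted p nearly requires. It is a description and no result. Pcmtd1-205 reached the minimum only through the acHKO libraries.

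The 10 lower ones were Rps19-205, Ppp2r2d-203, Slc12a7-203, Ap5m1-204, Echdc2-209, Zdhhc3-201, Cyb5r1-205, Pcnp-205, Elob-205 and Cyp2d9-208. Ppp2r2d-203, of a regulatory subunit of protein phosphatase 2A, was 6.55% and 6.94% in P10 controls and 1.98% and 0.726% in HKO. At 1 month it was 5.46% and 6.98% against 1.66% and 1.14%, and in the acute pair 4.76%, 8.38% and 4.68% against 0%, 1.22% and 0.280%. Knockout and control libraries were apart in all 3 comparisons, which the choice by the same rule nearly requires. In Zdhhc3, of a palmitoyltransferase, Zdhhc3-207 rose where Zdhhc3-201 fell: they were 24.2% to 28.6% and 51.9% to 55.3% in GFP, and 43.1% to 52.5% and 33.7% to 43.7% in acHKO.

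**Figure D5:**
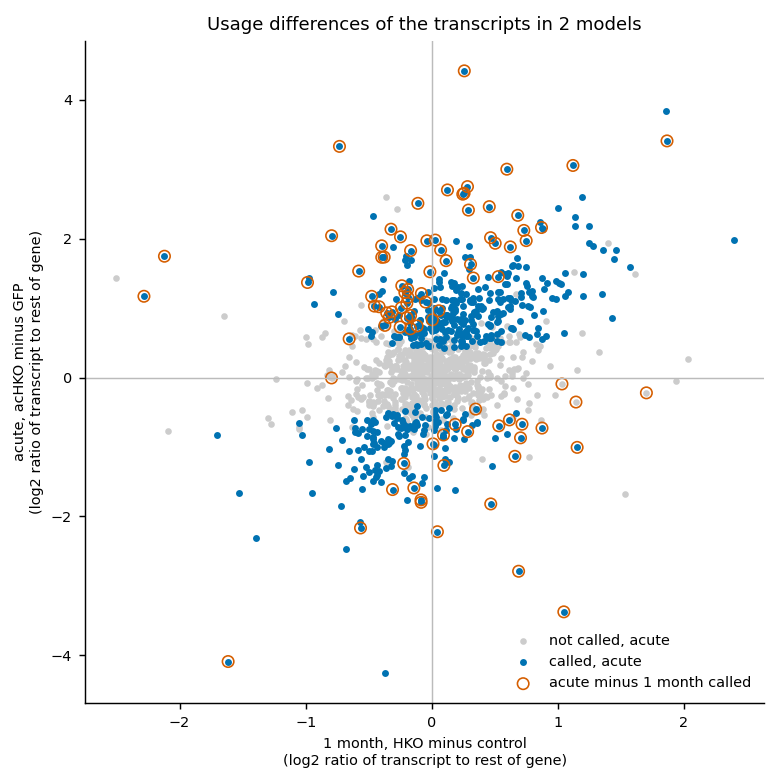
Each point is a member, with the usage difference at 1 month (HKO minus control, log2 ratio) on the x axis and the acute difference (acHKO minus GFP, log2 ratio) on the y axis; circles mark the 89 members whose effects differed by the interaction test. The acute axis spans from -4.26 (Mia2-215) to 4.42 (Naa60-202), and the 1 month axis from -2.51 (Lars2-209) to 2.39 (Ces3b-203). Naa60-202 reached the minimum only through the acHKO libraries.

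The acute and 1 month effects on usage differed in 89 of 1208 members (7.37%) by the interaction term of limma over 14 libraries. Of these, 62 were higher and 27 lower in the acute model. Over all transcripts 7.47% differed, 4.12% higher and 3.35% lower, so the number of members was near the background. With the split pseudocount 74 members differed, 46 higher and 28 lower (6.13%, against 5.96% of all transcripts), of which 56 were shared. P10 and 1 month effects differed in none (background 0.0187%, or 0.00934% with the split pseudocount; 73 members had an unadjusted p under 0.05). Age, delivery of Cre and genotype of the controls differ between the models as well, so these cannot be told apart. Without the second 1 month HKO library 19 members were called in place of 89.

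In many members called in the acute comparison, the other control libraries lay beyond the GFP range on the acHKO side. These members were chosen by a difference between GFP and acHKO, which itself favours that. In 1 month controls it was more frequent still over all transcripts chosen in the same way, so it is no trait of the members. Of the 349 that rose, the mean share in 1 month controls lay beyond the GFP range on the acHKO side in 236 (67.6%, against 72.5% of all transcripts that rose), and nearer to acHKO than to GFP in 171 (49.0% against 52.2%). Of the 166 that fell it lay beyond the GFP range on the acHKO side in 101 (60.8% against 72.9%). Tlk2-207, Ctsh-202 and Sirt3-206 were examples, and Tlk2-207 was 30.2% and 34.1% in 1 month controls, which carry Srsf1, against at most 6.33% in GFP. Mitochondrial transcripts were also lowest in the GFP libraries, and the part of this in the shares was not tested.

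Srsf1-204, the member of the deleted gene itself, has its stop in chr11:88049977-88050015 (+). It was 6.64 and 5.63 TPM in P10 controls and 1.30 and 1.07 in HKO, and 4.70 and 1.49 TPM in 1 month controls and 0.961 and 0.224 in HKO. In GFP it was 0.902, 0.900 and 1.81 TPM and in acHKO 0, 0.0476 and 0.0240 TPM. The knockout libraries were lower in each comparison, and the level fell past the threshold in the acute one (-1.66 ± 0.21, adjusted p = 0.0027; 0.0623 at P10 and 0.137 at 1 month). As a part of Srsf1 it was 5.47%, 3.03% and 5.62% in GFP and 0%, 0.893% and 0.577% in acHKO. This lower share was not called with the fixed pseudocount (adjusted p = 0.0601, with the ratio in the other direction) and was called with the split one (adjusted p = 0.0155).

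The genes of the decay factor list, which have no member, are given from the authors' own gene-level comparisons. Beside UPF and SMG factors the list holds genes with wider roles in translation or RNA turnover, such as Etf1, Ncbp1 and Xrn1. In the authors' deposited table of the acute comparison, 10 of 27 such genes were lower and none higher (16.1% and 16.4% of all genes), with a median log2 fold change of -0.26 over the 27 and 0.10 over all genes. In that authors' deposited table Upf2 was -0.91 ± 0.17 (adjusted p = 1.02e-06), Upf3a -0.79 ± 0.19 (adjusted p = 0.000301) and Smg6 -0.60 ± 0.16 (adjusted p = 0.00103). Upf2 and Upf3a bridge the exon junction complex to Upf1, and Smg6 is the endonuclease of the pathway. The other lower genes, none of them a UPF or SMG factor, were Casc3, Dcp1a, Eif4a3, Etf1, Gspt1, Ncbp1 and Xrn1. Upf1 in the authors' deposited table was 0.07 ± 0.14 (adjusted p = 0.744). In the authors' deposited table of 1 month none of the 27 was called (8.97% of all genes were higher and 4.53% lower), and in that of P10 3 were higher and none lower (13.4% and 11.8%). In the authors' deposited table of P10 these were Xrn2 (0.45 ± 0.12), Smg8 (0.39 ± 0.15) and Etf1 (0.37 ± 0.11). Whether these levels moved the members was not tested.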

How the data were processed

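Hepatocyte RNA of 14 libraries in 6 groups was analysed from the authors' deposited transcript TPM table. The submitters' processing notes name kallisto 0.46.0, bcl2fastq 2.17.1.14 and DESeq2, with GRCm38 (mm10); TPM keep no depth, so counting error is unknown. The authors' deposited gene tables give log2 fold changes with standard errors, p-values and adjusted p-values, a mean signal per gene and a test score, and the fold changes, standard errors and adjusted p-values were used, for decay factor genes. Groups follow the labels.

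Level was tested as log2(TPM + 0.5) over 26374 transcripts and usage as the within-gene log2 ratio over 21409, with limma 3.58.1 (trend; R 4.3.3), in 1 fit of the 8 P10 and 1 month libraries and 1 fit of the 6 acute libraries with 4 residual degrees of freedom each. All 14 entered the test of acute against 1 month effects. Calls are Benjamini-Hochberg adjusted p under 0.05 over all transcripts tested. The split pseudocount and the restriction to members with a control mean of at least 0.5 TPM, alone and together, were chosen after seeing the data. Stops, exons and sequences were read from GENCODE release 21 (mouse) with Python 3.11.15, and the 10 members not matched have none.

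Named are the 8 most abundant members, the 6 largest share and level changes each way per comparison among calls with no overlap (level at a mean of at least 1 TPM), up to 4 members per gene list by usage p and those against their list, the 4 largest differences each way between comparisons, those next to the minimum, and Srsf1 transcripts. Of the most abundant, 1 is not reported here. Members that moved alike in all 3 comparisons were added after their values were seen. The members, lists and rule were chosen with earlier results of these data known. On simulated data, changes were added to 100 of the tested transcripts per size of change in level, and to 75 to 84 in usage. In the acute design, changes of 2 log2 units were recovered for 77% of the changed transcripts in level (26374 tested). In usage it was 69% (21380 tested). Changes of 1 unit were recovered for 12% and 5.06%. At P10 changes of 2 units were recovered for 35% in level and 18.7% in usage, and of 1 unit for 1% and 0%. At 1 month these were 57% and 29.1%, and 0% and 0%. The rates were not split by transcript level and do not cover scarce members. They may also not hold where many more transcripts differ, as in the acute comparison. Alternatives are given in the closing section.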

Additional observations from a re-analysis of the deposited data

Results flagged for a closer look

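For each transcript here the difference in within-gene log2 ratio between knockout and control was not the same in the acute model as at 1 month. The test was the interaction term of limma at a Benjamini-Hochberg adjusted p under 0.05. Such calls were about as frequent over the members (7.37%) as over all transcripts (7.47%). Values are the acute minus the 1 month difference. Among splicing and RNA-binding genes, the difference was 1.26 for Tardbp-201, -1.71 for Hnrnpu-206, -1.68 for Hnrnpa1-203 and -1.30 for Rbm25-208. Among respiratory and ribosomal genes it was 4.06 for Ndufa10-207, 1.26 for Ndufb8-205, -1.06 for Ndufa6-204, 2.27 for Rpl22l1-204, -1.60 for Rps19-205, -1.23 for Rpl10a-203 and -1.92 for Mrpl3-206.

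In genes of secreted proteins and of drug and lipid metabolism, it was 0.87 for Serpinc1-204, 0.98 for Serpinf1-208, -3.48 for Clu-205, 1.39 for Cyp2r1-206, -1.79 for Cyp2d9-204, -1.60 for Cyp2c70-204, 2.13 for Sult2a8-204, -0.80 for Cyb5a-201, -2.47 for Chpt1-207 and -4.42 for Abcd3-205. Hacl1-211, of a peroxisomal lyase gene, had 3.45, from an acute effect of 1.17 and a 1 month effect of -2.28, while it was listed at 0 in all 3 acHKO libraries and in 1 of the 1 month HKO libraries.

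In the other genes it was 4.16 for Naa60-202, 3.87 for Usf2-209, 2.58 for Tlk2-207, 2.47 for Ctsh-202, 2.41 for Gpbp1-204, 2.29 for Ppia-201, 2.12 for Sirt3-206, 2.01 for Rps6kc1-206, 2.00 for Bmp1-205, 1.54 for Eny2-206, -2.29 for Tmem41b-206, -1.39 for N4bp2l1-202 and -1.36 for Pdilt-202. With the split pseudocount the difference was no longer called for Eny2-206, Hacl1-211, Abcd3-205, Ppia-201, Serpinc1-204, Cyp2d9-204, Hnrnpu-206, Tardbp-201, Ndufa6-204 and Cyp2r1-206. Naa60-202 and Rps6kc1-206 reached the minimum only through the acHKO libraries, and Pdilt-202 and Ndufa6-204 only through the GFP libraries. The minimum itself thus favoured a higher level of each in that group. Age, delivery of Cre and control genotype differ between the models and cannot be told apart.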

How the results depend on the processing

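At P10 the 23 level calls became 12 with no filter on low values, 69 with all 14 libraries in 1 fit, 55 without mitochondrially encoded transcripts, 38 with quantile normalization, 14 among members with a control mean of at least 0.5 TPM, and 1 to 17 with 1 library left out. The 11 level calls at 1 month became 4, 29, 47 and 35 under the first 4 of these, 42 with median-ratio rescaling and 7 to 11 with 1 library left out. The 432 acute level calls became 206 with no filter, 285 at a mean of at least 1 TPM and 248 to 452 with 1 library left out. The 5 usage calls at P10 became 1 with a pseudocount of 0.1 TPM, 13 with no filter, 17 in 1 fit, 9 with limma diffSplice, 1 at a difference of at least 10 points, 1 at a control mean of at least 0.5 TPM and 0 to 3 with 1 library left out. The 2 at 1 month became 0, 8, 14, 7, 1 and 1 in the same order, 1 at a mean of at least 1 TPM, 0 with the split pseudocount and 0 to 2 with 1 library left out. The 515 acute usage calls became 332 at a mean of at least 1 TPM, 180 at a difference of at least 10 points and 397 to 438 with 1 library left out. With the control mean and the split pseudocount together, usage calls numbered 2 (P10), 0 (1 month) and 353 (acute). The causes were not tested.

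Usage effects at P10 and 1 month differed in 0 members, in 1 with a pseudocount of 1 TPM and in 0 to 2 with 1 library left out. The 89 differences between the acute and 1 month effects became 19 to 89 with 1 library left out: 25 without the first 1 month control, 19 without the second 1 month HKO library, 51, 49 and 42 without each GFP library in turn and 51, 57 and 57 without the acHKO libraries. The summed TPM difference at P10 was 1046, -205 with median-ratio rescaling, 1208 over every transcript of the class and 899 to 1194 with 1 library left out. In the acute comparison it was -1091, 276 with median-ratio rescaling and -1356 to -752 with 1 library left out. At 1 month it was -1139, and -1949 to -329 with 1 library left out.

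Replicate numbers are shared between groups. Deviations of same-numbered libraries correlated at 0.005 (P10), 0.36 (1 month) and 0.002, 0.17 and 0.13 (acute), so the numbers were not taken as a pairing. With the replicate block the level calls numbered 41 (P10), 23 (1 month) and 403 (acute), the usage calls 5, 1 and 482, and the differences between the acute and 1 month effects 107.

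Of 224 called values of named members, 95 kept their direction and call under every alternative run and 220 kept their sign. The exceptions in sign, all in acute usage, were Eef1b2-208 (-1.49 with the split pseudocount), Treh-203 (0.35, likewise), Hacl1-211 (-3.62, likewise, and -0.32 with a pseudocount of 0.1 TPM) and Got1-204 (-0.40 with limma diffSplice). Depth limits could not be computed from TPM.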
